A study of Mus musculus with 20 samples.

Results

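The metabotropic glutamate receptor genes Grm2, Grm3, Grm4, Grm5, Grm7 and Grm8 were taken by name from the gene table of a mouse cortex RNA sequencing study and kept where their mean level over 16 libraries was at least 1 CPM (counts scaled to the depth of each library). All 6 of the 6 listed genes were kept, out of 25317 gene identifiers in the table. Grm6 was not analysed here.

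Metabotropic glutamate receptors are G protein-coupled receptors that answer synaptic glutamate through second messengers rather than by opening a pore. Grm5 belongs to group I, which couples to Gq, phospholipase C and calcium release and lies mostly on the postsynaptic side. Grm2 and Grm3 (group II) and Grm4, Grm7 and Grm8 (group III) couple to Gi/o, lower cyclic AMP and mostly restrain transmitter release, and Grm3 is also made by astrocytes.

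The study compared heterozygous Foxp2 deletion (het) with wild-type (wt) C57BL/6 mice at 3 months of age, with 1 animal per sample. Ribosomes that carried a GFP tag were captured from cortical lysate with an antiserum to GFP (bacTRAP, called IP here), and a small part of the lysate, kept from before the capture, served as Input. The groups were het IP (n = 3), wt IP (n = 5), het Input (n = 3) and wt Input (n = 5), the same 8 animals giving IP and Input. Both genotypes therefore carry the tag in the IP, and the sources used here do not say which cells carry it. By the series title the deletion is cortical, and the driver that confines it is not stated in these sources. In bulk RNA, fewer cells of a type and less RNA per cell cannot be told apart.

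Libraries held 2782934 to 5754169 counts, and no replicates of a group agreed within sampling noise (lowest chi-square per degree of freedom 2.13). The IP library of het729 had a mitochondrial share of 0.398%, against 0.0616 to 0.127% in the other 7 IP libraries. Foxp2, the targeted gene, averaged 28.3 ± 3.55 CPM in het Input (SD, n = 3) and 47.7 ± 11.3 CPM in wt Input (n = 5) with no overlap, and 47.2 ± 13.1 CPM in het IP and 70.9 ± 21.7 CPM in wt IP with overlap. By the edgeR test described below, its log2 change was -0.76 (SE 0.17, adjusted p = 0.501) in Input. In IP it was -0.59 (SE 0.23, adjusted p = 0.981), and neither change was called. The share of all genes without overlap was not counted. The protocol excludes striatum and hippocampus, yet summed striatal markers (5 genes) reached 415 to 742 CPM in IP and 1147 to 1509 CPM in Input, and hippocampal markers (3 genes) 98.3 to 136 CPM in IP and 151 to 231 CPM in Input. Choroid plexus markers (3 genes) ran from 2.13 to 24.5 CPM in IP and from 3.5 to 117 CPM in Input. Defining cerebellar markers were at or near 0 (at most 1.63 CPM for 3 genes summed). Animal names take 2 forms in the titles, BT with a number (hetBT13, wtBT13, wtBT14) or a number alone (het729, het786, wt734, wt736, wt785). What the form stands for is not given, and it moved with 1 receptor gene, Grm2, in IP, so genotype values are also given within each form.

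In mm10, Grm5 (ENSMUSG00000049583) lies on chromosome 7 from 87584168 to 88134907, plus strand. Grm2 (ENSMUSG00000023192) lies on chromosome 9 from 106643095 to 106656082, minus strand, and Grm3 (ENSMUSG00000003974) on chromosome 5 from 9485541 to 9725170, minus strand. Grm4 (ENSMUSG00000063239) lies on chromosome 17 from 27422387 to 27521403, minus strand. Grm7 (ENSMUSG00000056755) lies on chromosome 6 from 110645581 to 111567230, plus strand, and Grm8 (ENSMUSG00000024211) on the same chromosome from 27275119 to 28135178, minus strand. The nearer end of Grm8 lies 11.8 Mb and that of Grm7 95.2 Mb beyond the end of Foxp2, which is also on chromosome 6. Antisense genes cover 9.6% of the exon bases of Grm2 (Gm28111) and 2.21% of those of Grm7 (Gm20387), and reads there cannot be assigned to a strand in these libraries.

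The promoters of Grm2 and Grm8 are shown because the ribosome-bound levels of these genes varied most, Grm8 between IP and Input and Grm2 among the IP libraries. RefSeq windows (GRCm38.p6, around transcript starts) were at hand for 4 of the 6 genes. Forkhead-type motifs were searched on both strands, namely TGTTTAC, then TATTTAT, and then its close variant TATTTGT, and a match is in capitals. The Grm2 window is chr9:106656060-106656359 and the first of 3 Grm8 windows is chr6:28135097-28135396, both on the minus strand and printed 5′ to 3′.
Grm2: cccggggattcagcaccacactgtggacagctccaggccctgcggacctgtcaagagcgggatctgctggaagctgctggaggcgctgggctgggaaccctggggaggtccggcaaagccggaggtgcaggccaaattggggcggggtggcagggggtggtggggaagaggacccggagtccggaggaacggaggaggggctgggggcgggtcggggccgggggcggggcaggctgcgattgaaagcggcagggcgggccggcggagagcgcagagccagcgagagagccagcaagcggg
Grm8: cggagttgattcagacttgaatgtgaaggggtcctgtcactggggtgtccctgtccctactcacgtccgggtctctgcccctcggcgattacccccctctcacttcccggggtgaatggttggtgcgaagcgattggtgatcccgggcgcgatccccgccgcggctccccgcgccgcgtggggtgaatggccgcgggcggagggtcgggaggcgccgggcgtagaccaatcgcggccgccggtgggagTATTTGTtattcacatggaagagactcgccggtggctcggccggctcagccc
The Grm2 window is 72% G and C and holds none of the motifs. The Grm8 window is 67% G and C and holds 1 TATTTGT, the only match in the 7 windows of these genes. TATTTGT is in 3.63%, TATTTAT in 5.6%, TGTTTAC in 3.65% and any of them in 11.8% of all 32851 promoter windows, so the match is a description of letters and not of a site.

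Grm3 and Grm5 were the most abundant of the receptors per exon length, and Grm4 and Grm8 the least. Over the 16 libraries the level was 20.2 ± 5.86 CPM per kb for Grm3, 13.6 ± 2.29 for Grm5, 5.72 ± 2.42 for Grm2, 5.67 ± 1.64 for Grm7, 1.99 ± 0.911 for Grm8 and 1.87 ± 0.529 for Grm4 (SD over libraries). Grm3 was above Grm5 in 15 of 16 libraries. Neighbours that were not separated were Grm2 and Grm7, with Grm2 above in 7 of 16, and Grm8 and Grm4, with Grm8 above in 9 of 16. Every other pair of the 6 kept its order in 16 of 16 libraries.

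**Figure D1:**
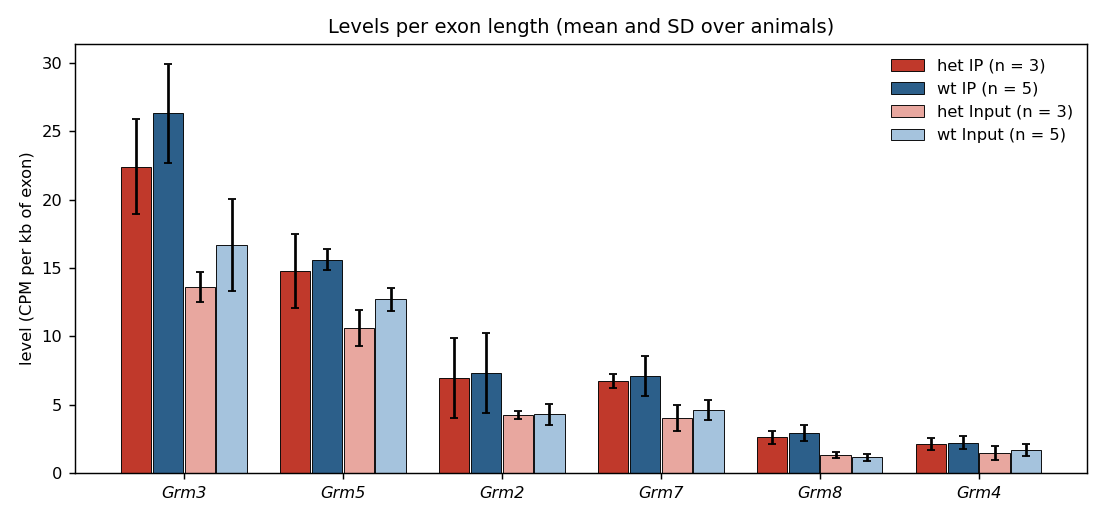
Levels of the 6 receptor genes in CPM per kb of exon, as the mean (bar) and SD (error bar) over animals in het IP (n = 3), wt IP (n = 5), het Input (n = 3) and wt Input (n = 5). Grm3 stands highest in each group, up to a mean of 26.3 CPM per kb in wt IP, and Grm8 and Grm4 lie lowest, with wt Input means of 1.13 and 1.65 CPM per kb.

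The IP against Input comparison asks which RNAs were bound to tagged ribosomes more than their share of the lysate, and 4 of the 6 receptor genes were higher in IP in heterozygotes and 5 of the 6 in wild types. In heterozygotes 22.6% of all 14797 genes tested were called higher, 22.1% lower and 44.8% in either direction (edgeR quasi-likelihood F test with animal as a block, Benjamini-Hochberg adjusted p below 0.05). In wild types 28.5% were called higher, 25.6% lower and 54.1% in either direction. The median log2 fold change of the receptor genes was 0.68 in heterozygotes and 0.63 in wild types, beside all-gene medians of 0.04 and 0.03. With limma-voom 5 of 6 were called in each genotype, and without the low-count filter 5 in heterozygotes and 6 in wild types. The genes are described by receptor group.

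Grm5, the group I receptor that signals through Gq at postsynaptic sites, had the smallest change. It held 130, 142 and 183 CPM in the IP of het729, het786 and hetBT13, against 124, 99.7 and 101 CPM in the Input of those animals. In wild types wt734, wt736, wt785, wtBT13 and wtBT14 it held 168, 163, 160, 162 and 147 CPM in IP, against 120, 128, 133, 143 and 128 CPM in Input. IP exceeded Input in all 8 animals, by 1.04-fold in het729 to 1.8-fold in hetBT13. The log2 fold change was 0.46 (SE 0.12, adjusted p = 0.00288) in heterozygotes and 0.30 (SE 0.09, adjusted p = 0.00743) in wild types by edgeR. The call in heterozygotes ended without hetBT13 (log2 0.28, adjusted p = 0.0892).

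Grm2, a group II receptor of nerve terminals, split the animals into 2 separate ranges of IP level. The IP of het729, het786 and hetBT13 held 28, 23.7 and 50.2 CPM, against 19.9, 20.2 and 22.4 CPM in their Input. The IP of wt734, wt736, wt785, wtBT13 and wtBT14 held 28.6, 27.5, 20.7, 52.7 and 49.6 CPM, against 26.1, 23.1, 17.8, 16.5 and 21.1 CPM in their Input. All 8 animals were higher in IP, the 3 with BT names by 2.24- to 3.19-fold and the other 5 by 1.1- to 1.41-fold. Averaged over these ranges the log2 fold change was 0.64 (SE 0.27, adjusted p = 0.0658) in heterozygotes, not called by edgeR, and 0.70 (SE 0.21, adjusted p = 0.00907) in wild types. The heterozygous change was called in 4 of 14 alternatives, among them limma-voom (adjusted p = 0.0451). When 1 animal was left out, the heterozygous value ran from 0.37 (without hetBT13) to 0.83 (without het786). The wild-type value ran from 0.46 (without wtBT13) to 0.86 (without wt734).

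Grm3, the group II receptor of neurons and astrocytes, was higher in IP in both genotypes. Its IP levels were 57.3, 78.5 and 68.8 CPM in het729, het786 and hetBT13, against 41.1, 38.1 and 44.8 CPM in Input. In the wild types, in the order above, IP held 90.4, 67.8, 72.3, 92.6 and 77.4 CPM, against 64.7, 46.8, 58.3, 39.9 and 44.9 CPM in Input. Every het IP library was above every het Input library, and every wt IP library was above every wt Input library. How many of all genes separated in this way was not counted. The log2 fold change was 0.71 (SE 0.15, adjusted p = 0.000678) in heterozygotes and 0.66 (SE 0.11, adjusted p = 4.51e-05) in wild types by edgeR. Astrocyte markers moved the other way: 9 of 12 were called lower and 1 higher in IP in each genotype, and their sums were 838 to 1183 CPM in het IP and 994 to 1316 CPM in wt IP, against 1756 to 2031 CPM in het Input and 1939 to 2384 CPM in wt Input. The defining astrocyte water channel Aqp4 remained at 12.7 to 15.7 CPM in het IP and 18.2 to 34.9 CPM in wt IP, and the part of astrocyte RNA in the Grm3 level was not tested.

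Grm4, a group III receptor, was the 1 gene of the 6 not called by edgeR in either genotype. IP held 11.2, 10.8 and 15.6 CPM in the heterozygotes, against 9.02, 5.3 and 11.4 CPM in Input. In wild types IP held 11.4, 12.6, 10.4, 17.6 and 14.5 CPM, against 10.1, 9.95, 14, 8.27 and 7.05 CPM in Input. IP was higher in 7 of 8 animals, the exception being wt785 at 0.747-fold, and the IP and Input ranges overlapped in both genotypes. The log2 fold change was 0.56 (SE 0.27, adjusted p = 0.0993) in heterozygotes and 0.42 (SE 0.20, adjusted p = 0.0804) in wild types. The wild-type value was called without wt785 (0.64, adjusted p = 0.0147) and without the low-count filter (0.44, adjusted p = 0.0395).

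Grm7, the low-affinity group III receptor of the presynaptic active zone, was higher in IP in 7 of 8 animals. IP held 37.6, 43 and 38.2 CPM in the heterozygotes, against 24.4, 17.5 and 28.9 CPM in Input. In wild types IP held 45.3, 27.1, 41.6, 49.8 and 44.6 CPM, against 26.6, 32.6, 24.8, 30.2 and 21.5 CPM in Input. The het ranges did not overlap, and wt736, at 0.832-fold, was the only animal below 1. How common such separate het ranges were among all genes was not counted. The log2 fold change was 0.76 (SE 0.21, adjusted p = 0.00605) in heterozygotes and 0.60 (SE 0.16, adjusted p = 0.00318) in wild types by edgeR. The heterozygous call ended without het786 (log2 0.52, adjusted p = 0.102).

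Grm8, a group III receptor of nerve terminals with higher glutamate affinity than Grm7, had the largest fold change of the 6 in both genotypes. IP held 29.5, 27.3 and 20.5 CPM in het729, het786 and hetBT13, against 11.7, 11.6 and 15.5 CPM in Input. In wt734, wt736, wt785, wtBT13 and wtBT14 IP held 29.6, 34.4, 29.8, 18.9 and 30.3 CPM, against 10.6, 9.95, 8.45, 14.5 and 12.2 CPM in Input. All IP libraries were above all Input libraries, and the animals ran from 1.3-fold in wtBT13 to 3.53-fold in wt785. The share of all genes with IP and Input ranges apart was not counted, so the separation is a description alone. The log2 fold change was 1.01 (SE 0.24, adjusted p = 0.00179) in heterozygotes and 1.35 (SE 0.18, adjusted p = 2.96e-06) in wild types by edgeR. Grm8 stayed called under each of the 14 alternatives run in both genotypes.

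**Figure D2:**
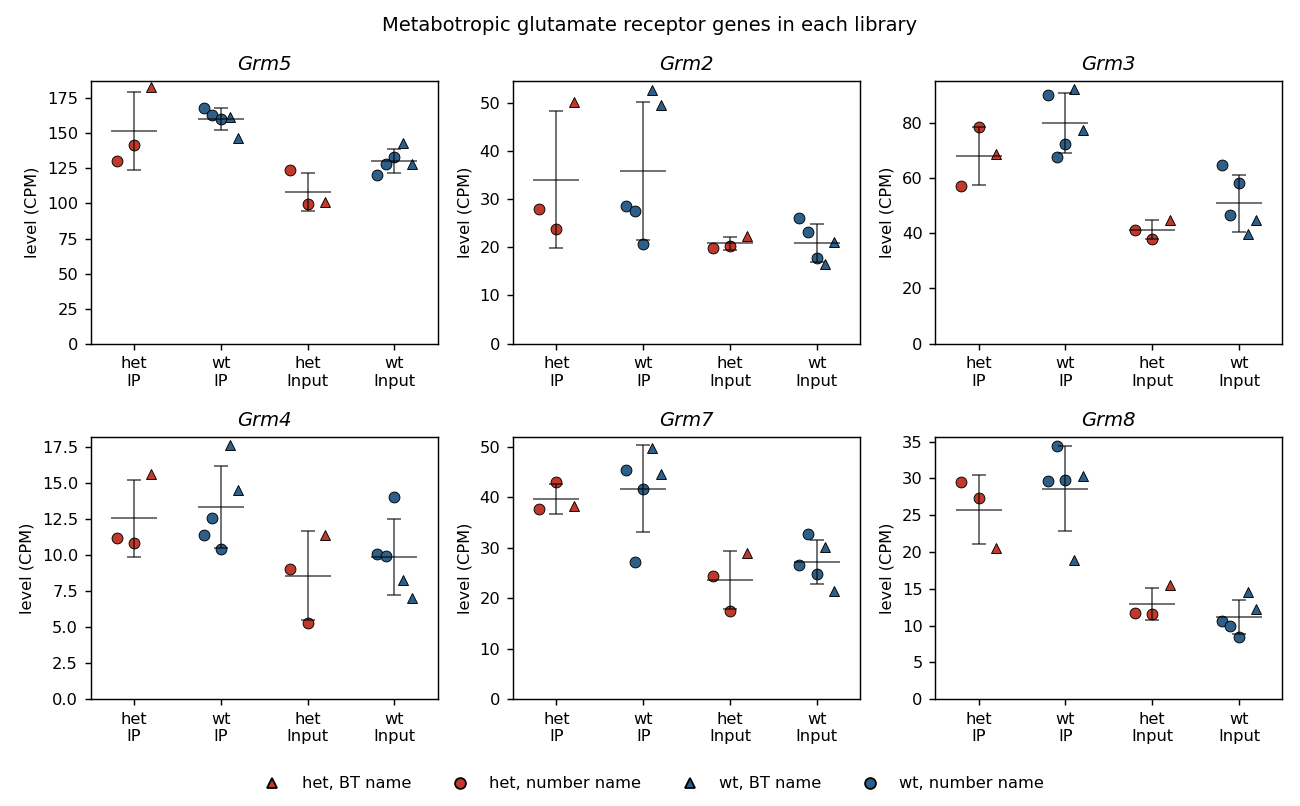
Level in CPM (vertical axis, from 0) of each receptor gene in each of the 16 libraries, by group, with triangles for BT names, circles for number names, and the group mean and SD as a line and bar. The Grm2 panel has 3 IP libraries at 49.6 to 52.7 CPM and 5 at 20.7 to 28.6 CPM, and in the Grm8 panel the IP libraries lie above the Input libraries.

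**Figure D3:**
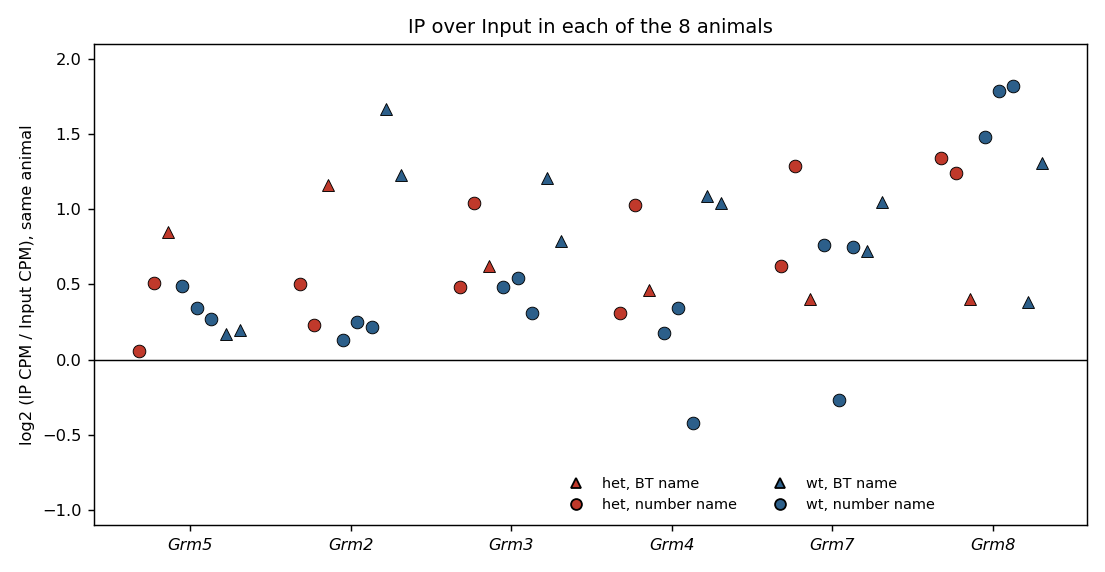
Log2 ratio of IP to Input CPM in the same animal (vertical axis) for the 6 genes, 1 point per animal, het in red left of wt in blue, triangles for BT names. Points lie above 0 apart from Grm4 in wt785 (-0.42) and Grm7 in wt736 (-0.27), and Grm8 reaches 1.82.

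The IP over Input effect of the receptor genes was not shown to differ with genotype. The difference of the effects, heterozygous minus wild type, ran from -0.34 (Grm8, SE 0.31) to 0.17 (Grm5, SE 0.15) on the log2 scale, and 0 of the 6 were called. Over all genes 0 of 14797 (0%) were called by edgeR, 0 by DESeq2 and 0 by limma-voom, and 454 genes (3.07%) had an unadjusted edgeR p below 0.05, none of the 6 among them. For Grm8 that SE leaves a wide range of differences that 3 against 5 animals cannot separate from 0.

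Cell type markers also differed between IP and Input, and their part in the receptor values was not tested. Layer 6 corticothalamic markers (5 genes) summed to 477 to 672 CPM in het IP and 379 to 596 CPM in wt IP, against 322 to 354 CPM in het Input and 291 to 350 CPM in wt Input. Ntsr1, the defining marker of these neurons, held 34.8 to 42.4 CPM in het IP and 35.1 to 46.9 CPM in wt IP, against 1.99 to 4.24 CPM in het Input and 3.5 to 5.54 CPM in wt Input. Interneuron markers (9 genes) were 8 called lower and 1 called higher in each genotype, with sums of 593 to 803 CPM in IP and 1347 to 1629 CPM in Input. Oligodendrocyte markers were 9 of 10 called lower in each genotype. Of all genes, 22.1% were called lower in heterozygotes and 25.6% in wild types.

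The genotype comparison asks whether losing 1 Foxp2 allele changed the receptor RNAs, and no receptor gene passed the test in either fraction. In IP, 0 of 6 were called, against 0 of 14755 genes (0%) by edgeR, 3 by DESeq2 and 0 by limma-voom, with 604 genes (4.09%) at an unadjusted edgeR p below 0.05 and none of the 6 among them. In Input, 0 of 6 were called, against 0 of 13870 genes (0%) by edgeR, 0 by DESeq2 and 0 by limma-voom, with 979 genes (7.06%) at an unadjusted edgeR p below 0.05. Grm5 was the 1 receptor gene among the 979.

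The means of the 6 genes in IP were all below the wild-type means in heterozygotes, and none of the differences was called. Grm3 averaged 68.2 ± 10.6 CPM in het IP and 80.1 ± 10.9 CPM in wt IP (SD, n = 3 and 5), a log2 change of -0.23 (SE 0.13, edgeR adjusted p = 0.981). The other 5 genes had log2 values of -0.16 (Grm8) to -0.07 (Grm2 and Grm7), with adjusted p of 0.981 to 0.996. Het and wt ranges overlapped for all 6 genes. All genes had a median of 0.00 in this comparison.

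In Input, Grm5 averaged 108 ± 13.8 CPM in heterozygotes and 130 ± 8.67 CPM in wild types (SD, n = 3 and 5), a log2 change of -0.25 (SE 0.10, edgeR unadjusted p = 0.0239, adjusted p = 0.683). Grm3 averaged 41.3 ± 3.36 CPM in heterozygotes and 50.9 ± 10.2 CPM in wild types, a log2 change of -0.30 (SE 0.15, adjusted p = 0.707). Grm8 was the gene with a higher mean, at 12.9 ± 2.22 CPM in heterozygotes and 11.1 ± 2.32 CPM in wild types (log2 0.20, SE 0.21, adjusted p = 0.851). With the IX and IXX libraries added, the Grm5 and Grm3 values were both -0.16. Grm2, Grm4 and Grm7 had log2 values of -0.01, -0.22 and -0.21. The ranges overlapped for all 6, and none of these differences was called. Astrocyte markers had lower heterozygous values in 11 of 12 genes in Input (median log2 -0.38) and in 11 of 12 in IP (median -0.45), none of them called, and their part in the Grm3 values was not tested. In IP the same held for 10 of 10 microglial (median -0.37), 7 of 10 oligodendrocyte (-0.10) and 5 of 5 tested oligodendrocyte precursor markers (-0.93). It also held for 4 of 4 tested mural (-0.73) and 3 of 3 tested endothelial markers (-0.45). In Input these lists, in that order, had lower values in 9 of 10, 8 of 10, 3 of 5, 4 of 4 and 2 of 3 genes, none called.

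**Figure D4:**
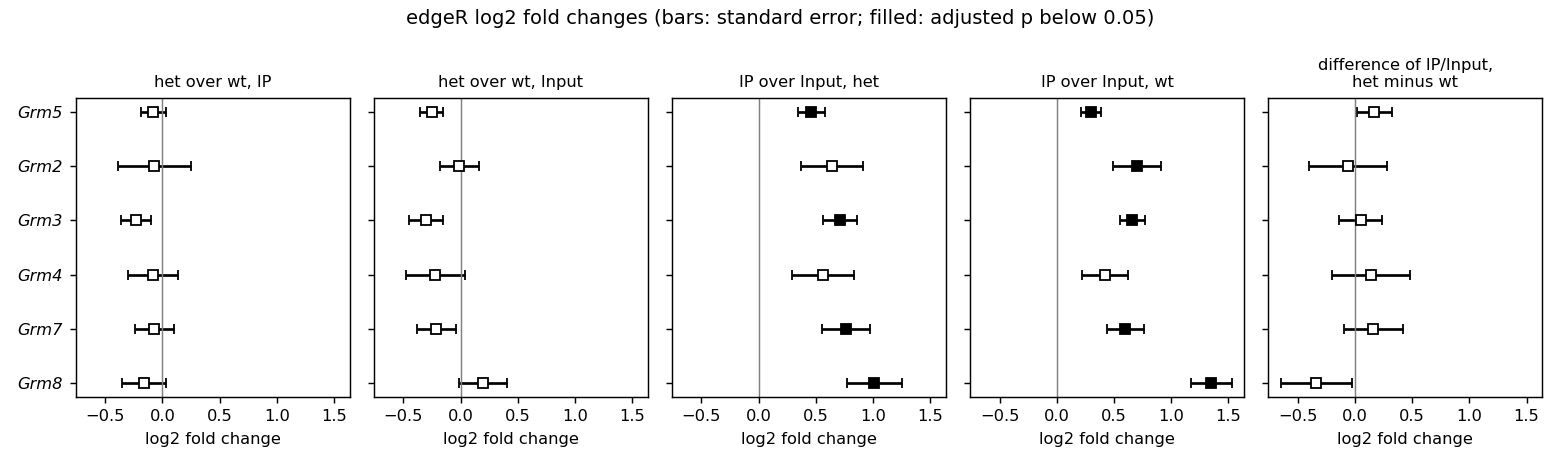
Log2 fold change (horizontal axis) with its standard error for the 6 genes in each of 5 comparisons, from edgeR, with filled squares where the adjusted p was below 0.05. The 2 genotype panels and the difference panel hold open squares alone, from -0.34 to 0.20, and the IP over Input panels hold 4 filled squares in heterozygotes and 5 in wild types.

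Within the forms of the animals' names, several genotype values took opposite signs. Each form holds few animals (1 het and 2 wt with BT names, 2 het and 3 wt with numbers), so these are values with no test. Grm5 in IP was at 118% of the wild-type mean in BT-named animals and at 82.9% in number-named animals. Grm4 in Input was at 149% with BT names and at 63.2% with numbers, Grm3 in Input at 106% and 70%, and Grm7 in Input at 112% and 74.9%. Grm2 in IP, which was at 94.9% over all animals, was at 98.2% with BT names and 101% with numbers. Grm8 kept its sign in both forms, at 116% and 120% in Input and at 83.2% and 90.7% in IP. Grm3 in IP was at 80.9% with BT names and 88.4% with numbers. Grm5 in Input, at 74.8% and 88.3%, and Grm4 in IP, at 97.7% and 96%, also kept their signs. Grm7 in IP was at 80.9% and 106%, and Grm2 in Input at 119% and 89.7%. Foxp2 was below the wild-type mean in both forms, at 54.4% and 69.6% in IP and at 53.2% and 66.5% in Input.

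The form of the name was then compared directly, with genotype as a covariate. This comparison was chosen after the Grm2 values were seen, so its p-values describe these libraries and are no independent test. Grm2 averaged 50.8 ± 1.65 CPM in the IP of BT-named animals (SD, n = 3) and 25.7 ± 3.4 CPM in the IP of number-named animals (n = 5). The ranges, 49.6 to 52.7 CPM and 20.7 to 28.6 CPM, did not overlap, and hetBT13 and the 2 BT-named wild types lay together. The log2 change was 0.98 (SE 0.13, edgeR adjusted p = 0.0112). In Input Grm2 averaged 20 ± 3.08 CPM in BT-named animals and 21.4 ± 3.24 CPM in number-named animals, a log2 change of -0.14 (SE 0.16, adjusted p = 0.704) with overlapping ranges. The difference of the IP over Input effects, BT minus number, was 1.09 (SE 0.20, adjusted p = 0.00737).

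Grm2 was the 1 of 6 receptor genes called by name form in IP, against 0.657% of all genes called in either direction and 0.339% called higher. In Input 0 of 6 were called, against 5.86% of 13870 genes called by edgeR. An unadjusted edgeR p below 0.05 was found for 3 of the 6 in IP and for 1 of the 6, Grm8, in Input. The share of all genes at that unadjusted threshold was not counted by name form, so these 2 counts are descriptions alone. For the difference of the effects 1 of 6 was called, against 0.953% of genes in either direction and 0.243% called higher. Without wtBT14 the Grm2 change in IP was no smaller but no longer called (adjusted p = 0.0814). Over 13 alternatives that gave an adjusted p, the Grm2 difference was 0.92 to 1.25 with adjusted p of 0.000116 to 0.0374.

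Grm8 and Grm4 each had ranges in 1 fraction that did not overlap between the name forms, and neither was called. The share of all genes without such overlap was not counted, so these ranges are descriptions alone. Grm8 averaged 14.1 ± 1.7 CPM in BT-named and 10.5 ± 1.33 CPM in number-named Input (SD, n = 3 and 5) with no overlap, and 23.2 ± 6.15 CPM in BT-named and 30.1 ± 2.6 CPM in number-named IP with overlap. The log2 values were 0.43 in Input (adjusted p = 0.173) and -0.38 in IP (adjusted p = 0.276), and the difference of the effects was -0.85 (SE 0.25, adjusted p = 0.0975). Grm4 averaged 15.9 ± 1.56 CPM in BT-named and 11.3 ± 0.806 CPM in number-named IP with no overlap (log2 0.49, adjusted p = 0.175). Grm3, Grm5 and Grm7 overlapped between the forms in both fractions, with log2 values of 0.11, 0.11 and 0.18 in IP.

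Cell type marker values by the form of the name are given here, in IP unless Input is named, and their part in the Grm2 and Grm8 values was not tested. Layer 6 corticothalamic markers had lower values in BT-named IP in 5 of 5 genes (median log2 -0.32), with sums of 379 to 477 CPM in BT-named and 527 to 672 CPM in number-named animals. Rprm, one of these 5, was called (log2 -0.63, edgeR adjusted p = 0.0183), and Ntsr1 was not (log2 -0.04, adjusted p = 0.91). Layer 5 marker sums were 307 to 316 CPM in BT-named and 346 to 421 CPM in number-named IP, but the 5 genes went both ways, 2 with higher and 3 with lower values (median log2 -0.05, none called). Glutamatergic neuron markers had lower values in 6 of 8 genes (median log2 -0.10, none called). So had 3 of 5 tested oligodendrocyte precursor markers (median log2 -0.15, none called). Interneuron markers had higher values in 9 of 9 genes (median log2 0.20, none called), with sums of 696 to 803 CPM in BT-named IP that overlapped those of number-named IP. Values were also higher in BT-named IP for 9 of 10 oligodendrocyte markers (median log2 0.27), 9 of 12 astrocyte markers (0.25), 8 of 10 microglial markers (0.19), 3 of 3 tested endothelial markers (0.43), 3 of 4 tested mural markers (0.33) and 2 of 2 tested choroid plexus markers (1.18), none of them called. In Input, where 5.86% of all genes were called by edgeR, 2 of 8 glutamatergic and 2 of 9 interneuron markers were called lower. There 2 of 12 astrocyte and 1 of 5 layer 6 corticothalamic markers were called higher. Foxp2 itself had a log2 value of -0.51 in IP (adjusted p = 0.208) and 0.45 in Input (adjusted p = 0.0307) by name form.

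The signalling partners of group I receptors were called higher in IP more often than lower. Of 22 tested genes of the Gq and calcium pathway, 7 were called higher and 2 lower in heterozygotes (median log2 0.33), and 12 higher and 2 lower in wild types (median 0.51), beside the all-gene shares given above. Itpr1, the calcium release channel gated by inositol trisphosphate, averaged 335 ± 33.2 CPM in wt IP and 156 ± 18.8 CPM in wt Input (SD, n = 5 each), a log2 change of 1.11. The phospholipase C genes Plcb4 and Plcb1 had log2 changes of 1.07 and 0.80. Gnaq, a Gq alpha subunit, fell by 0.57 on that scale, with 585 ± 83.9 CPM in wt IP and 872 ± 143 CPM in wt Input, and the scaffold gene Homer3 fell by 1.27, with 1.08 ± 0.39 CPM in wt IP and 2.7 ± 0.498 CPM in wt Input.

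Genes of the Gi/o machinery of groups II and III were called in both directions. Of 23 tested genes, 8 were called higher and 8 lower in IP in heterozygotes (median log2 0.00), and 7 higher and 8 lower in wild types (median 0.11), beside all-gene shares of 22.6% higher and 22.1% lower in heterozygotes and 28.5% higher and 25.6% lower in wild types. The adenylyl cyclase genes Adcy9 and Adcy8 had log2 changes of 1.03 and 0.66 in wild types and the beta subunit gene Gnb2 one of 0.63. The gamma subunit genes Gng7, Gng3 and Gng4 fell by 1.69, 0.83 and 0.73, Gng7 to 168 ± 23 CPM in wt IP, against 543 ± 82.4 CPM in wt Input (SD, n = 5 each). Striatal markers fell with Gng7, with 5 of 5 called lower in IP in each genotype, and their part in its value was not tested.

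Of 17 tested receptor partners and regulators, 5 were called higher and 6 lower in heterozygotes (median log2 -0.13), and 5 higher and 5 lower in wild types (median 0.12), beside the same all-gene shares. Pick1, a PDZ protein that binds the tail of Grm7, averaged 107 ± 4.61 CPM in wt IP and 68.9 ± 2.52 CPM in wt Input (SD, n = 5 each; log2 0.63). Ppp1cc, a catalytic subunit of protein phosphatase 1, and Arrb2, a beta-arrestin that binds active receptors, had log2 changes of 0.72 and 0.92. Rgs4, which speeds the shut-off of Gi/o and Gq, fell by 1.48, and Rgs2 and Rgs8 each fell by 0.54.

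Of 10 tested genes of glutamate and N-acetylaspartylglutamate (NAAG, a ligand of Grm3) supply, 3 were called higher and 4 lower in IP in each genotype. Their median log2 values were -0.13 in heterozygotes and -0.16 in wild types. The all-gene shares were 22.6% higher and 22.1% lower in heterozygotes, and 28.5% higher and 25.6% lower in wild types. The glutaminase gene Gls2 and the vesicular transporter gene Slc17a6 had log2 changes of 0.43 and 0.89 in wild types. The glutamate uptake transporters Slc1a3 and Slc1a2 of astrocytes fell by 0.89 and 0.76, and the cystine-glutamate exchanger Slc7a11 fell by 0.41, a call that ended without wtBT14. In the genotype comparisons none of the genes in these 4 lists was called by edgeR in IP or in Input.

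Genes whose pattern over the 16 libraries was closest to each receptor were ranked by the root mean square difference of centred log2 CPM among 15661 other genes. Grm5 was closest to Tmed3 (0.10), Hexa (0.12) and B9d2 (0.12), and Grm3 to Ncam1 (0.15), Nlgn1 (0.16) and Dpp10 (0.16). Grm2 was closest to Cbr4 (0.25), Clp1 (0.26) and Slc35a1 (0.27), less close than the first genes of Grm3 or Grm5. Grm7 was closest to Usp54 (0.18), Thoc2 (0.19) and Zc3hc1 (0.20), and Grm4 to Rhpn1 (0.22), Iqcc (0.25) and Qsox2 (0.25). Grm8 was closest to Pdlim1 (0.21), Tle4 (0.22), one of the 5 layer 6 corticothalamic markers above, and Garnl3 (0.23). A gene of median distance lay at 0.41 from Grm5 and at 0.73 from Grm8. Among the receptors themselves Grm3 and Grm7 were closest (0.26), and Grm8 was farthest from the others (0.49 to 0.63). These distances are descriptions over libraries that share animals and depth.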

How the data were processed

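RNA was measured by Smart-seq2 sequencing of IP and Input from mouse cortex. The deposited values are the authors' raw read counts for Ensembl genes, for which the submitters' processing notes name HTSeq and mm10. The aligner, annotation release, versions and strand setting are not given in the sources used here. Gene symbols came from GENCODE M21, with 24873 of 25317 identifiers matched. Smart-seq2 reads carry no strand and no molecular identifiers, so counting error understates the real error.

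Counts were tested in R 4.3.3 with edgeR 4.0.16: filterByExpr (count minimum 10), TMM scaling, robust quasi-likelihood F tests and Benjamini-Hochberg adjustment over all genes, with a threshold of 0.05. Genotype was tested within IP and within Input (3 against 5 animals), and IP over Input in 1 joint fit to all 16 libraries, blocked by animal. The pairing comes from the protocol, which takes both fractions from the lysate of 1 animal. The 2 libraries of an animal deviated from their group means together, with r of 0.054 to 0.217 over 14797 genes. In 7 of 8 animals r was higher with the animal's own Input than with any other Input of its genotype. The exception was wtBT14, at 0.080 with its own Input and 0.173 with another. CPM are TMM-scaled, per kb by the exon union, and errors are SD over animals. Another 4 Input libraries of 2 heterozygotes, with IX or IXX in their titles and no IP, stayed out of the main comparisons. They were added, summed per animal, in an alternative of the genotype comparison in Input. Alternatives used DESeq2 1.42.0 and limma 3.58.1. The fits were also run on simulated counts with the same spread for every gene and no effect of animal or name form. These libraries differ from that setting, so the run cannot show how the fits perform on them. Named genes are the 6 receptors, Foxp2, and the 3 called genes of smallest p per direction and pathway list, less items that are not reported here. The members, lists and tests were chosen with earlier results of these data known.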

Additional observations from a re-analysis of the deposited data

Results flagged for a closer look

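The IP over Input effect of Grm2 differed between animals with BT names and animals with number names by 1.09 on the log2 scale (SE 0.20, edgeR quasi-likelihood test, adjusted p = 0.00737). It was higher in each of the 3 BT-named animals (log2 1.16 to 1.67) than in each of the 5 number-named animals (log2 0.13 to 0.50). The comparison was chosen after these values were seen, the sources used here do not say what the names mean, and no cause was tested. Each of the 6 genes was looked at in wt IP and in wt Input, the groups of 5 libraries, for a single library far from the rest: of these 12 sets of values 0 had one, where chance alone gives about 1 in 20. The heterozygous groups, with 3 libraries, were not looked at.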

How the results depend on the processing

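Counts of called genes and signs that changed under an alternative are given here, with changed calls on the receptor genes, and the cause was not tested for any of them. Grm2 in IP over Input in heterozygotes was called without the low-count filter (0.67, adjusted p = 0.0011), with limma-voom (0.65, adjusted p = 0.0451), without wt734 (adjusted p = 0.0488) and without wtBT13 (adjusted p = 0.0196). Without the low-count filter Grm4 was called in wild types (0.44, adjusted p = 0.0395), and Foxp2 was called by genotype in Input (-0.77, adjusted p = 0.000794). The count of genes called by genotype in IP was 3 with DESeq2, that in Input was 28 without the low-count filter, and that for the difference of the IP over Input effects between genotypes was 11 without it. By name form in IP the count was 97, and 792 without the filter, 154 with the stricter filter, 408 with DESeq2 and 0 to 216 when 1 animal was left out, the receptor genes among them being 0 to 1. By name form in Input leaving out 1 animal gave 376 to 863 genes. For the difference of the effects by name form the count was 141, and 358 without the filter (2 of them receptor genes, Grm8 being added with adjusted p = 0.0402), 325 with no replicate block and 63 to 185 when 1 animal was left out. DESeq2 gave no adjusted p for Grm2, Grm4, Grm7 and Grm8 in that comparison, where 10328 of 14797 genes had none, so it has no count of receptor genes there. It gave none for Grm4 by name form in Input either. Without the replicate block the receptor genes called in IP over Input were 4 in heterozygotes and 5 in wild types, as with it, and the block changed no other call on them.

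By genotype in Input, over all alternatives, Grm3 ran from -0.40 to -0.16 and Grm5 from -0.38 to -0.16. Signs turned for values near 0. When 1 animal was left out, log2 values by genotype in IP ran from -0.47 to 0.13 for Grm2, -0.27 to 0.04 for Grm4, -0.24 to 0.02 for Grm5 and -0.20 to 0.00 for Grm7, and in Input from -0.11 to 0.08 for Grm2 and -0.44 to 0.02 for Grm4. The difference between genotypes ran from -0.33 to 0.18 for Grm2, -0.11 to 0.19 for Grm3, -0.08 to 0.30 for Grm4, -0.02 to 0.37 for Grm5 and -0.08 to 0.34 for Grm7. By name form Grm5 ran from -0.08 to 0.21 in IP, and in Input Grm2 ran from -0.30 to 0.00, Grm5 from -0.08 to 0.06 and Grm7 from -0.15 to 0.22. The difference by name form ran from -0.18 to 0.17 for Grm5 and -0.13 to 0.46 for Grm7. The genotype value of Grm2 in Input was also 0.01 with limma-voom and 0.03 once the IX and IXX libraries were added, and Grm5 by name form in Input was 0.00 with RLE scaling, DESeq2 and limma-voom. With 3 against 5 animals and 2782934 to 5754169 counts per library, small genotype differences of these genes were not detectable.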

Other observations

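The 4 heterozygous Input libraries with IX or IXX in their titles, from het730 and hetBT14, entered no main comparison. They entered only the alternative of the genotype comparison in Input that added them. Scaled with all 20 libraries, Grm8 held 6.34 and 8.3 CPM in the IX and IXX libraries of het730 and 16.2 and 13.5 CPM in those of hetBT14, beside 11.3 to 15.3 CPM in het Input and 8.34 to 14.2 CPM in wt Input. Grm2 held 19.4 and 16.6 CPM in het730 and 22.7 and 30 CPM in hetBT14, beside 19.6 to 22.1 CPM in het Input and 16.2 to 25.9 CPM in wt Input. Grm5 held 131, 107, 143 and 122 CPM in these 4 libraries, within or above the het Input range of 97.6 to 122 CPM. Grm3 held 47.7, 40.9, 56.1 and 54.8 CPM, 3 of them above the highest het Input library at 44.2 CPM and all within the wt Input range of 39 to 64.1 CPM.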
